A study of Triticum turgidum subsp. durum with 24 samples.

Results

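Alpha-amylases are endo-acting hydrolases that cut the α-1,4-glucan chains of starch. In cereals the AMY1 family carries an N-terminal signal peptide and is best known from germination, when the aleurone and scutellum secrete it into the starchy endosperm. AMY3 is the plastidial isoform, known from starch turnover in leaves of Arabidopsis, and AMY2 is a further isoform encoded by another gene pair. The expression of 7 alpha-amylase genes of the durum wheat (Triticum turgidum) variety Kronos was examined here, out of 66559 transcripts quantified, each standing for 1 gene.

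The 7 genes were 3 of the 15 AMY1 genes of the genome, both homeologs of AMY2 and both homeologs of AMY3. The 3 AMY1 genes were selected on measured values, as those that reached 1 TPM as a timepoint mean in these libraries (TPM is a level corrected for transcript length, on a scale with the same total in each library). Their levels are therefore given as a description with no test. The 4 AMY2 and AMY3 genes were taken by name, whatever their level. All 7 passed the filter on low counts.

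Dissected endosperm of Kronos plants was sampled at 6, 8, 10, 13, 15, 18, 20 and 30 days post anthesis (dpa), with 3 libraries per timepoint and 24 in all. No treatment or mutant was included. Several endosperms of 1 spike were pooled for each library, fewer at the late stages, and a plant could supply spikes to several timepoints. Libraries held 56.2 to 115.8 M estimated counts. Endosperm is a mixture of starchy endosperm, aleurone and transfer cells, and maternal tissue can adhere to it. In such bulk samples fewer cells of a type and less RNA per cell cannot be told apart.

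The labelled tissue was checked against marker genes. The 6 starchy endosperm markers, GBSS1 (granule-bound starch synthase) and the cytosolic ADP-glucose pyrophosphorylase subunits, were detected in every library and had mean levels at 30 dpa of 344.7 to 486.8 TPM. GBSS2-B1, a granule-bound starch synthase of the pericarp, was also detected in every library, at 4.47 to 6.22 TPM at 6 dpa, 7.13 to 12.4 TPM at 8 dpa, 8.71 to 14.5 TPM at 10 dpa, 4.64 to 7.62 TPM at 13 dpa, 4.34 to 5.49 TPM at 15 dpa and 0.208 to 0.436 TPM at 30 dpa. At 13 dpa, replicate 3 stood apart, as the lowest of the 3 libraries for each of the 6 starchy endosperm markers (GBSS1-A2 was at 358 TPM, against 688 and 804 TPM in the others). Values of the members at 13 dpa are given with and without this library below. The libraries of 10 dpa spread more widely still, in fold terms, for each of the 6 markers. From lowest to highest, GBSS1-A2 was at 160, 561 and 834 TPM at 10 dpa, and GBSS1-A1 at 77.3, 349 and 593 TPM. Comparisons of 13 with 10 dpa carry the spread of both timepoints.

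Of the 7 genes, 2 stood far above the rest. AMY1-5A (TRITD5Av1G228350) lies on chromosome 5A at 602535685 to 602537115 of the Svevo v1 assembly, and AMY1-5B (TRITD5Bv1G227200) on chromosome 5B at 641873227 to 641874719. Both transcripts had a coding length of 1242 bases. They were expressed in early endosperm with the highest level at 8 dpa, nearly disappeared between 10 and 15 dpa, and were not detected afterwards.

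AMY1-5A had 84.3, 121 and 128 TPM at 6 dpa, 312, 150 and 135 TPM at 8 dpa, and 70.4, 65.5 and 74.4 TPM at 10 dpa. It had 11.5, 1.26 and 0.0217 TPM at 13 dpa, and 0.0349, 0.0690 and 0 TPM at 15 dpa. No library of 18, 20 or 30 dpa held a count of it. The means were 111 ± 23.6 TPM at 6 dpa, 199 ± 98.5 TPM at 8 dpa, 70.1 ± 4.42 TPM at 10 dpa and 4.27 ± 6.32 TPM at 13 dpa (SD, n = 3 each). The order of the levels was 8, 6, 10 and 13 dpa, and the libraries of each of these timepoints did not overlap with those of the next in the order. From 13 dpa on, neighbouring timepoints in the order overlapped.

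The lead of 8 over 6 dpa was narrow. The lowest library of 8 dpa had 135 TPM and the highest of 6 dpa had 128 TPM, and the mean at 8 dpa was 1.79 times that at 6 dpa. It depended in part on 8 dpa replicate 1: the log2 ratio of the means was 0.84 with all libraries and 0.36 without that library. The mean at 10 dpa was 2.84-fold lower than at 8 dpa, and the mean at 13 dpa was 16.4-fold lower than at 10 dpa. The size of that last drop rested on single libraries, at 109-fold without 13 dpa replicate 1. Without 13 dpa replicate 3 the log2 ratio of the means was -3.45, against -4.04 with all libraries. At its highest, AMY1-5A ranked 931 of the 66559 transcripts by mean TPM.

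AMY1-5B followed the same course at a lower level. It had 36.9, 54.0 and 52.2 TPM at 6 dpa, 139, 83.7 and 56.6 TPM at 8 dpa, and 34.2, 14.6 and 30.1 TPM at 10 dpa. It had 1.39, 0.274 and 0 TPM at 13 dpa and no count in any library from 15 dpa on. The means were 47.7 ± 9.41 TPM at 6 dpa, 93.2 ± 42.2 TPM at 8 dpa, 26.3 ± 10.3 TPM at 10 dpa and 0.555 ± 0.737 TPM at 13 dpa (SD, n = 3 each). The mean at 13 dpa was 47.4-fold lower than at 10 dpa, with 192-fold if replicate 1 of 13 dpa is left out and 31.6-fold if replicate 3 is. The order of the 4 timepoints, again without overlap between neighbours, was the same as for AMY1-5A. AMY1-5B ranked 1665 at 8 dpa.

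**Figure D1:**
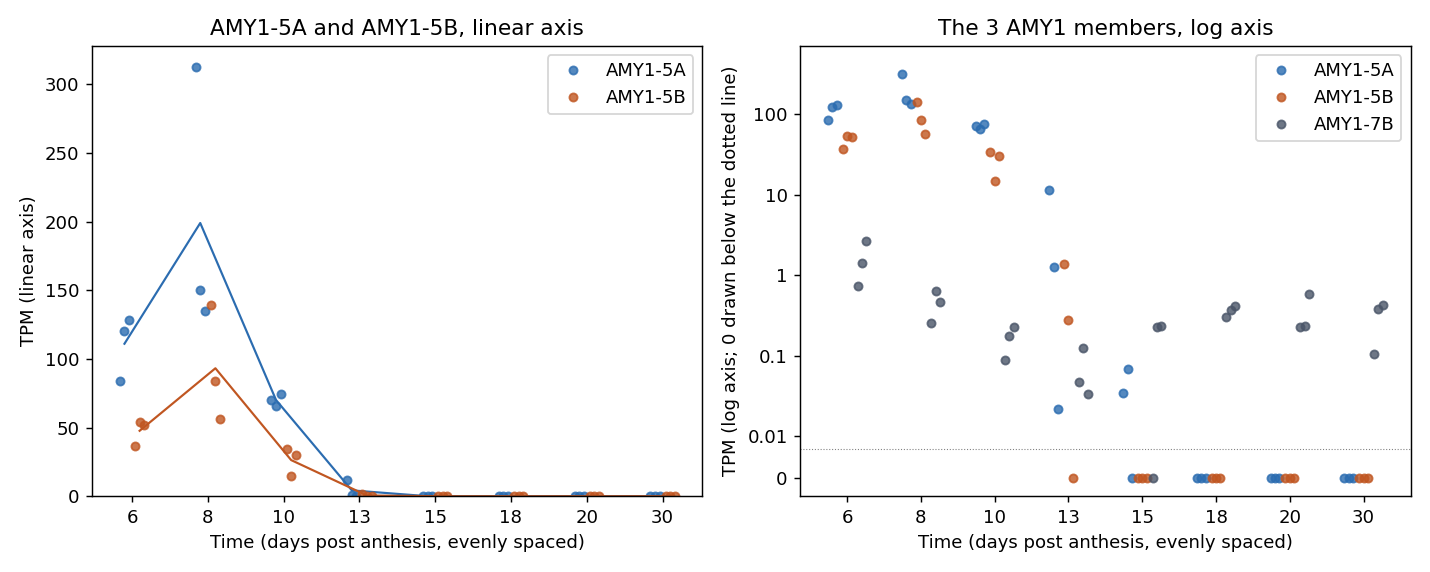
AMY1 members by library. Points are single libraries (3 per timepoint), lines join timepoint means, the left panel has a linear TPM axis for AMY1-5A and AMY1-5B and the right panel a log TPM axis with values of 0 drawn below the dotted line. Both chromosome 5 genes are highest at 8 dpa and at 0 in all libraries from 18 dpa, while AMY1-7B is highest at 6 dpa and lowest at 13 dpa.

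The depth sets a bound on the late levels. A count of 3, taken as the detection floor of a library, corresponds to 0.0132 to 0.0280 TPM for these transcripts at 30 dpa. Against that floor, AMY1-5A was at least 7117-fold lower at 30 dpa than at 8 dpa, and AMY1-5B at least 3333-fold lower. At 15 dpa AMY1-5A still had 5, 9 and 0 counts, which put its mean 5750-fold under that of 8 dpa. Floors of this kind cover counting error only. These folds are in TPM, in which the typical gene also fell late (median log2 change of -1.08 between 30 and 6 dpa). They were not computed on another scale.

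At 13 dpa the libraries differed widely. The pair summed to 12.9 TPM in replicate 1, 1.54 TPM in replicate 2 and 0.0217 TPM in replicate 3, and AMY1-5A differed 531-fold between its highest and lowest library. Of 26475 genes that averaged 1 TPM or more at 13 dpa, 45 (0.170%) had as large a ratio, and the median ratio was 1.55. Replicate 3, the lowest, was the library that stood apart above. The gap between replicates 1 and 2 does not involve that library.

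The pericarp marker GBSS2-B1 was also lower at 13 than at 10 dpa, with means of 5.99 and 11.7 TPM. It had 7.62, 4.64 and 5.71 TPM in replicates 1, 2 and 3 at 13 dpa, within a 1.64-fold range, and was highest in replicate 1, as the AMY1 pair was. At 15 dpa, where the summed AMY1 pair was at most 0.0690 TPM, GBSS2-B1 still had 4.34 to 5.49 TPM. At 18 dpa it had 2.67 to 3.42 TPM while the AMY1 pair had no count, and at 30 dpa its mean was 0.344 TPM. The part of adhering pericarp in the AMY1 values was not tested.

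The third AMY1 member, AMY1-7B (TRITD7Bv1G160880, chromosome 7B, 506394753 to 506396444), had a low level and another time course. It had 0.723, 1.43 and 2.67 TPM at 6 dpa, and the timepoint means were 1.61 ± 0.987 TPM at 6 dpa, 0.449 ± 0.188 TPM at 8 dpa, 0.164 ± 0.0711 TPM at 10 dpa and 0.0678 ± 0.0484 TPM at 13 dpa (0.0850 TPM without 13 dpa replicate 3). They were 0.153 ± 0.132 TPM at 15 dpa, 0.363 ± 0.0578 TPM at 18 dpa, 0.345 ± 0.199 TPM at 20 dpa and 0.305 ± 0.176 TPM at 30 dpa (SD, n = 3 each). It was lowest where the chromosome 5 pair was being lost, and unlike that pair it was detected again in every library of 18, 20 and 30 dpa. In TPM its 6 dpa libraries lay above those of 8 dpa, and all later neighbours in the order of its TPM levels overlapped.

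The mean of AMY1-7B at 6 dpa, 1.61 TPM, was the value just inside the selection at 1 TPM. The AMY1 gene just outside was TRITD7Av1G206750 on chromosome 7A, with a highest timepoint mean of 0.140 TPM. Of the 3 libraries of 6 dpa, replicate 3 was the highest for 6 of the 7 members, and for 40.7% of all genes tested with any signal at that timepoint. Without it, the log2 ratio of mean TPM of AMY1-7B between 8 and 6 dpa was -1.27, against -1.84 with all libraries.

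The 12 other AMY1 genes were close to the detection limit. Their highest value in any library was 0.288 TPM, none reached 0.5 TPM as a timepoint mean, and all 12 together summed to at most 0.539 TPM in a library. They lie on chromosomes 5A, 5B, 6A, 6B, 7A and 7B and, for 1 gene, an unplaced sequence. Only 3 had enough counts to be tested. The most counted of these, TRITD7Av1G206750, had 17, 14 and 40 counts at 6 dpa, 0, 0 and 2 counts at 13 dpa, and 1, 23 and 22 counts at 30 dpa, a dip at 13 dpa like that of AMY1-7B. TRITD7Av1G206090, on the same chromosome, had 0 counts in each library of 13 dpa, against 9, 8 and 6 counts at 6 dpa.

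In the fit over all genes (edgeR quasi-likelihood test, adjusted p at most 0.05 and over 1.5-fold, all 24 libraries), TRITD6Av1G194540, with 13, 5 and 11 counts at 13 dpa and 0 counts at 6 dpa, was higher at 13 than at 6 dpa, and the 7A genes just described were lower. Among all 44240 genes tested, 26% were higher and 23.8% lower in that comparison. Between 30 and 6 dpa none of the 3 was called by edgeR or DESeq2, and 0 had an unadjusted p under 0.05. With counts this low these calls were unstable. Leaving out single libraries gave 0 to 1 higher and 1 to 2 lower genes.

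Of the 6 genes next to the AMY1 members, 3 stayed near 0. TRITD5Av1G228360, 3239 bases after AMY1-5A, had at most 0.0490 TPM in any library, and TRITD5Bv1G227190, 9562 bases before AMY1-5B, at most 0.0773 TPM. On the other side of AMY1-5B, TRITD5Bv1G227260 had at most 0.164 TPM. TRITD5Av1G228340, a short gene model 2420 bases before AMY1-5A, was also early and then lost, at a low level and without a higher mean at 8 dpa. Its means were 4.29 TPM at 6 dpa, 4.03 TPM at 8 dpa, 1.30 TPM at 10 dpa, 0.0814 TPM at 13 dpa and 0 TPM from 15 dpa. TRITD7Bv1G160870, before AMY1-7B, had its highest mean at 8 dpa, 0.911 TPM. TRITD7Bv1G160890, 697 bases after AMY1-7B, was far above it, with means of 18.6 TPM at 6 dpa, 21.2 TPM at 8 dpa and 5.66 TPM at 30 dpa.

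Among 12150 genes that averaged 10 TPM or more in some timepoint, the genes most like the AMY1 pair over the 24 libraries were ranked by Pearson's r with the pair's summed counts (log2 scale of TMM-scaled CPM plus 0.5). The 5 closest had r of 0.994 to 0.999, with all 24 libraries sharing the same 8 timepoints. The first was TRITD2Av1G011340 (r = 0.999), with means of 25.7 TPM at 6 dpa, 51.4 TPM at 8 dpa, 15.9 TPM at 10 dpa and 1.44 TPM at 13 dpa. The second was TRITD5Av1G228550 (r = 0.996), with means of 356 TPM at 6 dpa, 449 TPM at 8 dpa, 282 TPM at 10 dpa and 14.7 TPM at 13 dpa. It lies on chromosome 5A at 602762556 to 602763194, within the same megabase as AMY1-5A. The sources used here pair neither ID with a gene name. GBSS2-B1 had an r of 0.54 with the AMY1 pair and ranked 5138. For the summed AMY2 pair the closest gene was TRITD0Uv1G057330 (r = 0.929), with means of 9.36 TPM at 6 dpa, 17.9 TPM at 13 dpa and 4.78 TPM at 30 dpa, and the 3 closest had r of 0.918 to 0.929.

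AMY2-A1 (TRITD2Av1G176800, chromosome 2A, 492665975 to 492669606) and AMY2-B1 (TRITD2Bv1G145150, chromosome 2B, 430299895 to 430303662) were expressed at a low level throughout, with coding lengths of 1248 bases. AMY2-A1 had 1.42, 1.69 and 2.09 TPM at 6 dpa, 2.25, 2.47 and 1.72 TPM at 8 dpa, 2.00, 2.16 and 2.24 TPM at 10 dpa, and 2.59, 2.39 and 3.97 TPM at 13 dpa. It had 1.59, 1.94 and 1.59 TPM at 15 dpa, 1.52, 1.51 and 2.33 TPM at 18 dpa, 1.05, 1.40 and 1.51 TPM at 20 dpa, and 0.741, 1.09 and 0.844 TPM at 30 dpa. The mean was lowest at 30 dpa, 0.892 ± 0.180 TPM, and highest at 13 dpa, 2.98 ± 0.862 TPM (SD, n = 3 each), where replicate 3 was the highest library and the mean without it was 2.49 TPM. In the order of its TPM levels the only neighbouring timepoints whose libraries did not overlap were 15 and 20 dpa. In the order of TMM-scaled CPM, the scale used below for fold changes, they were 8 and 6 dpa.

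AMY2-B1 had 1.28, 1.73 and 1.77 TPM at 6 dpa, 1.48, 1.44 and 1.69 TPM at 8 dpa, 1.62, 1.35 and 1.12 TPM at 10 dpa, and 1.49, 1.87 and 3.21 TPM at 13 dpa. It had 1.35, 1.59 and 1.86 TPM at 15 dpa, 1.28, 0.980 and 1.55 TPM at 18 dpa, 1.17, 1.52 and 1.72 TPM at 20 dpa, and 0.908, 1.14 and 1.07 TPM at 30 dpa. Every neighbouring pair of timepoints in its order of TPM levels overlapped. The mean was again lowest at 30 dpa, 1.04 ± 0.121 TPM, and highest at 13 dpa, 2.19 ± 0.902 TPM (SD, n = 3 each), or 1.68 TPM without 13 dpa replicate 3. In TMM-scaled CPM the order was another. There the mean of AMY2-B1 was highest at 20 dpa, 4.14 CPM, with 3.94 CPM at 30 dpa and 3.86 CPM at 13 dpa. It was lowest at 8 and 10 dpa, 2.30 CPM each.

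AMY3-A1 (TRITD3Av1G166320, chromosome 3A, 469084321 to 469104380) and AMY3-B1 (TRITD3Bv1G144770, chromosome 3B, 450376031 to 450391302) were lower still. Across the 24 libraries AMY3-A1 had between 0.114 and 0.450 TPM. AMY3-B1 had between 0.128 and 0.855 TPM. Both had their highest mean at 20 dpa, 0.383 ± 0.111 TPM for AMY3-A1 and 0.493 ± 0.0531 TPM for AMY3-B1 (SD, n = 3 each). The highest single value of AMY3-B1, 0.855 TPM, came from 6 dpa replicate 3, against 0.278 and 0.317 TPM in the other libraries of 6 dpa. Neither gene reached 1 TPM in any library, and all neighbouring timepoints in their orders of TPM overlapped.

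**Figure D2:**
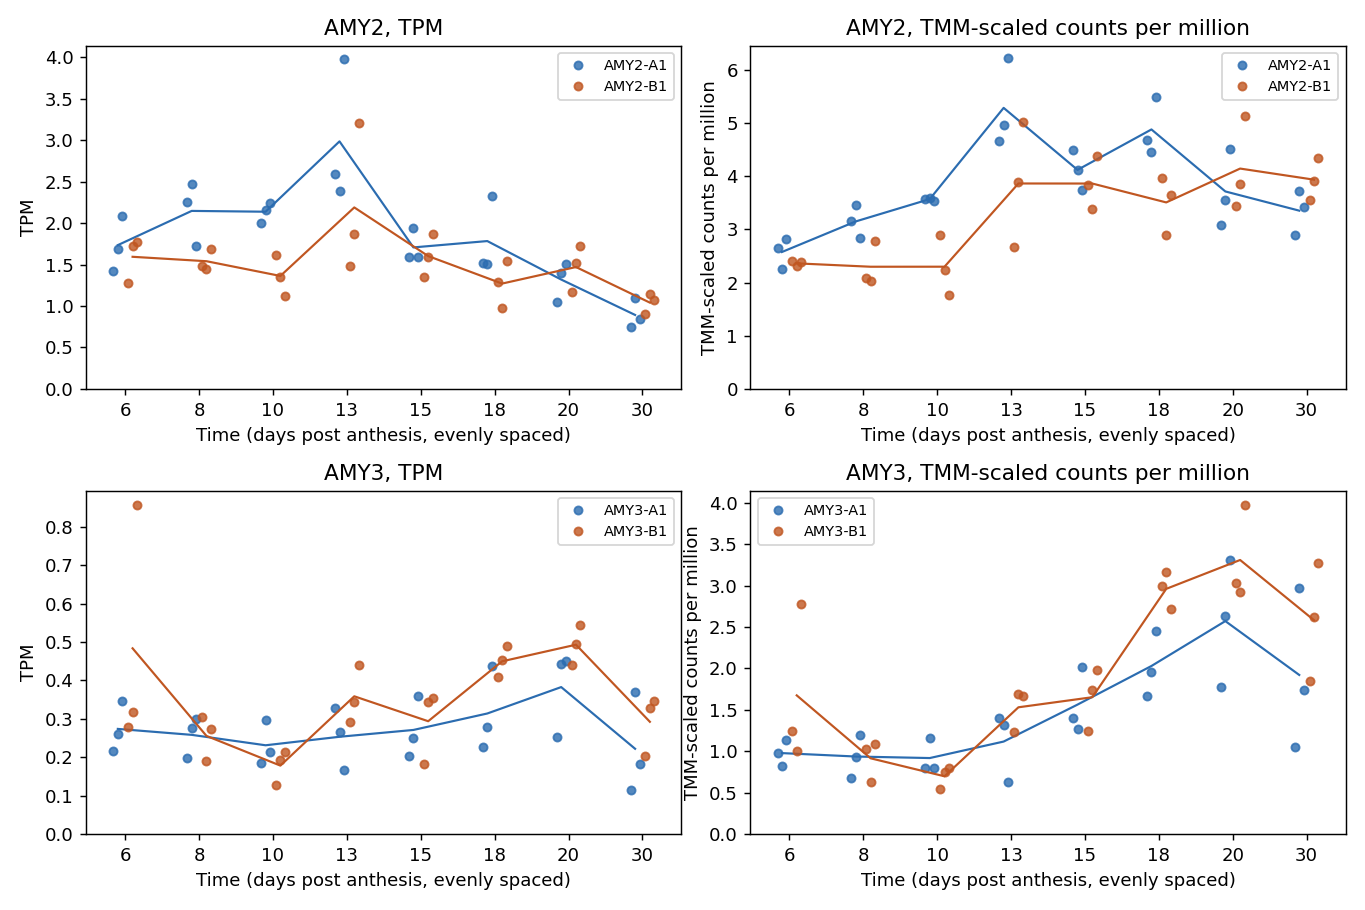
AMY2 and AMY3 homeologs by library. Points are single libraries (3 per timepoint), lines join timepoint means, the left panels show TPM and the right panels CPM (counts per library total of 1 M) after TMM scaling, both on linear axes from 0. AMY2-A1 is at 0.741 to 1.09 TPM at 30 dpa, the lowest timepoint in TPM, while on the TMM scale the lowest timepoint of AMY2-A1 is 6 dpa.

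The test over the 8 timepoints called all 4 AMY2 and AMY3 genes (edgeR quasi-likelihood F test, adjusted p of 0.00036 for AMY2-A1, 0.0028 for AMY2-B1, 0.0031 for AMY3-A1 and 4.4e-05 for AMY3-B1). Of all genes tested, 74.4% were called, so a call in this test is the usual outcome for a gene of these libraries. With scaling by library totals alone, 2 of the 4 genes were called, beside 37365 of all 44240 genes tested.

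Directions depended on the scale. Over all genes tested, the median log2 change in TPM between 30 and 6 dpa was -1.08, whereas scaling by trimmed mean of M values (TMM), which centres the bulk of genes, put the median log2 fold change at -0.01. The fold changes that follow are on the TMM scale and so relative to the typical gene. The median shift in TPM was -0.23 for 13 against 6 dpa, -0.55 for 15 against 8 dpa and -0.91 for 30 against 13 dpa.

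At 13 dpa both AMY2 genes were higher than at 6 dpa. AMY2-A1 rose by 1.04 ± 0.17 on the log2 scale (errors of fold changes are standard errors, adjusted p = 5.2e-05, edgeR) and AMY2-B1 by 0.71 ± 0.23 (adjusted p = 0.014, edgeR). AMY3-A1 changed by 0.18 ± 0.37 and AMY3-B1 by -0.13 ± 0.33, and neither was called. Of all genes tested, 26% were called higher and 23.8% lower in this comparison. Without 13 dpa replicate 3, AMY2-A1 was still called, whereas AMY2-B1 had a log2 fold change of 0.47 (adjusted p = 0.11, edgeR). With scaling by library totals alone, neither was called, beside 6768 of all 44240 genes tested called higher and 16738 called lower.

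At 30 dpa, against 6 dpa, AMY2-B1 was higher by a log2 fold change of 0.74 ± 0.24 (adjusted p = 0.010, edgeR) and AMY3-A1 by 0.98 ± 0.37 (adjusted p = 0.028, edgeR). AMY2-A1 had 0.38 ± 0.18 and AMY3-B1 0.63 ± 0.33, and neither was called. In this comparison 28.7% of all genes were called higher and 29.1% lower. On the TPM scale the direction of all 4 was the opposite: AMY2-B1 averaged 1.04 ± 0.121 TPM at 30 dpa and 1.59 ± 0.271 TPM at 6 dpa, and AMY3-A1 0.222 ± 0.133 TPM at 30 dpa and 0.274 ± 0.0665 TPM at 6 dpa (SD, n = 3 each). The AMY3-A1 call was lost without 6 dpa replicate 1 (log2 fold change 0.97, adjusted p = 0.060, edgeR), 6 dpa replicate 2 (0.87, adjusted p = 0.089) or 30 dpa replicate 2 (0.52, adjusted p = 0.24). AMY3-B1 was called without 6 dpa replicate 3, with an adjusted p of 0.0027 (edgeR).

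**Figure D3:**
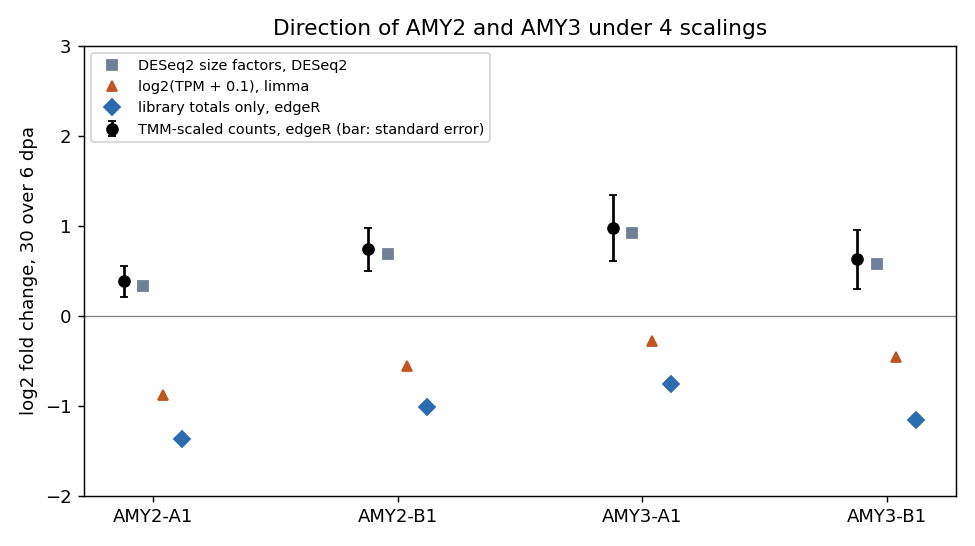
Log2 fold change of AMY2 and AMY3 genes at 30 over 6 dpa under 4 scalings. Points are fitted log2 fold changes, with standard errors for the TMM fit only. All 4 genes lie above 0 with TMM or DESeq2 size factors (0.38 for AMY2-A1 with TMM) and below 0 with TPM or library totals (-0.88 and -1.37 for AMY2-A1).

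Between 30 and 13 dpa, 1 of the 4 genes was called. AMY2-A1 fell by 0.65 ± 0.18 on the log2 scale at 30 dpa, against 13 dpa (adjusted p = 0.0075, edgeR), and AMY2-B1 had 0.03 ± 0.23. The difference between the copies in this comparison was not tested. On the TPM scale both were lower, at 0.892 and 1.04 TPM at 30 dpa, against 2.98 and 2.19 TPM at 13 dpa. Of all genes, 14.7% were called lower and 12.7% higher. Without 13 dpa replicate 3 the fold change of AMY2-A1 was -0.52 and without 30 dpa replicate 1 it was -0.56, both under 1.5-fold. AMY3-A1 had 0.80 ± 0.37 and AMY3-B1 0.75 ± 0.33, and neither was called.

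At 15 dpa, against 8 dpa, AMY2-B1 rose by 0.75 ± 0.23 (adjusted p = 0.011, edgeR) and AMY3-B1 by 0.85 ± 0.33 (adjusted p = 0.039, edgeR), both relative to the typical gene. In TPM AMY2-B1 was nearly level, at 1.60 ± 0.256 TPM at 15 dpa and 1.54 ± 0.132 TPM at 8 dpa (SD, n = 3 each). With library totals as the scale it had a log2 fold change of -0.035, and limma on TPM called 0 of the 4 genes higher. In this comparison 23.9% of all genes were called higher and 23.2% lower. Without 15 dpa replicate 3 neither was called (log2 fold change 0.65 with adjusted p = 0.051 for AMY2-B1 and 0.70 with adjusted p = 0.13 for AMY3-B1, edgeR). AMY3-B1 was also lost without 8 dpa replicate 1, 8 dpa replicate 2, 13 dpa replicate 1 or 15 dpa replicate 2.

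Of the 7 steps from one timepoint to the next, only that from 10 to 13 dpa gave calls. At 13 dpa, against 10 dpa, AMY2-B1 had a log2 fold change of 0.75 ± 0.23 (adjusted p = 0.047, edgeR) and AMY3-B1 of 1.13 ± 0.34 (adjusted p = 0.040, edgeR). Both lay near the threshold. AMY2-B1 was lost in 19 of the 24 fits that left out 1 library, with an adjusted p of up to 0.26 without 13 dpa replicate 3, and AMY3-B1 in 5 of them, each without a library of 10 or 13 dpa. The share of all genes called was 9.11% at this step. It was 3.07% for 8 against 6 dpa, 12.2% for 10 against 8 dpa, 0.0633% for 15 against 13 dpa, 0% for 18 against 15 dpa, 0.212% for 20 against 18 dpa and 10.2% for 30 against 20 dpa. At 18 against 15 dpa 2510 genes had an unadjusted p under 0.05, and DESeq2 called 35. At the 6 steps without a call, between 0 and 1 of the 4 genes had an unadjusted p under 0.05, and DESeq2 called 0.

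The ratio of the homeologs was examined in each pair, a measure that does not depend on the scaling between libraries. The A-genome copy AMY1-5A made up 69.9% ± 1.06 (6 dpa), 67.9% ± 3.30 (8 dpa) and 73.4% ± 7.49 (10 dpa) of the pair's TPM, as mean ± SD of 3 libraries. It was the higher copy in all 9 libraries of these timepoints, and the range was 64.2 to 81.8%. The mean log2 ratio was 1.27 over the 3 timepoints. The timepoint of 13 dpa was left out, since replicate 3 held 3 counts of AMY1-5A and 0 of AMY1-5B. There AMY1-5A had 11.5 TPM and AMY1-5B 1.39 TPM in replicate 1, with 1.26 and 0.274 TPM in replicate 2. Since the AMY1 genes were chosen on their levels, these values are a description and no test is read from them.

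For AMY2 the ratio changed with time (permutation test of F, p = 0.0039, adjusted over the 3 pairs, AMY1 included, 0.012). The A copy made up 52.1% ± 2.37 (6 dpa), 57.9% ± 6.66 (8 dpa), 61.2% ± 5.69 (10 dpa) and 58.3% ± 4.55 (13 dpa) of the pair, with 59.8% without 13 dpa replicate 3. Its later shares were 51.7% ± 4.93 (15 dpa), 58.3% ± 3.57 (18 dpa), 47.3% ± 0.546 (20 dpa) and 46.0% ± 2.49 (30 dpa), each the mean ± SD of 3 libraries. The libraries of 20 and 30 dpa lay at 44.1 to 48.8%, below every library of 6, 8, 10, 13 and 18 dpa, the lowest of which had 49.5%, while the libraries of 15 dpa, which reached down to 46.0%, overlapped with them. The change held in each fit that left out 1 library, with an adjusted p of at most 0.035. Averaged over time neither copy was higher beyond the spread of the timepoints (mean log2 ratio 0.23, exact sign-flip permutation test, p = 0.094).

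For AMY3 the A copy made up 39.2% ± 8.99 (6 dpa), 56.5% ± 5.84 (10 dpa) and 41.2% ± 10.3 (30 dpa) of the pair (SD, n = 3 each), and no change with time was detected (permutation test of F, p = 0.25, adjusted over the 3 pairs 0.37). The B copy had the higher mean at 6 of 8 timepoints. The mean log2 ratio of A to B was -0.23 (exact sign-flip permutation test, p = 0.047, adjusted over the 3 pairs 0.14).

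**Figure D4:**
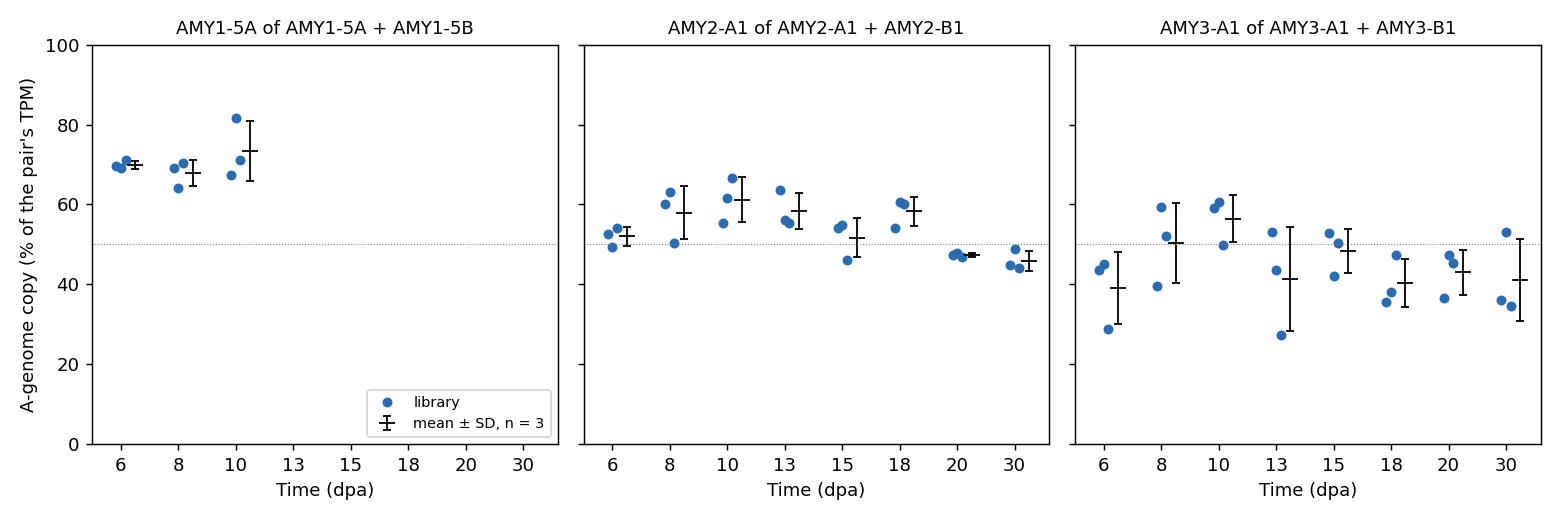
Share of the A-genome copy in the TPM of each homeolog pair. Points are single libraries, crosses with bars are the mean ± SD of 3 libraries, the dotted line marks equal shares, and for AMY1 the 3 timepoints with at least 10 counts of both copies in every library are drawn. The AMY2-A1 share lies at 44.1 to 48.8% in the libraries of 20 and 30 dpa and at 61.2% on average at 10 dpa.

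The copies of a pair are similar enough to share reads, which the counting divides by estimation. In 21 of the 24 libraries the separate AMY2 counts were not whole numbers although their sum was, within 0.01 counts, and the same held for AMY3 in 21 of the 24. For the AMY1 pair, 9 of the 11 libraries with both copies had counts that were not whole, and in 6 of these the sum was whole. In the other 3 the sum was not whole either. Shares of the copies carry this added uncertainty. In the fit of summed counts, AMY2 rose at 13 dpa, against 6 dpa, by 0.89 on the log2 scale (adjusted p = 0.00013, edgeR), and by 0.71 without 13 dpa replicate 3 (adjusted p = 0.0014), a fit added after the data were seen. At 30 dpa, against 6 dpa, it had 0.56 (adjusted p = 0.0056), just under 1.5-fold, and the summed AMY3 had 0.77 (adjusted p = 0.022).

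The make-up of the alpha-amylase transcripts changed with these courses. The AMY1-5A and AMY1-5B pair held 96.4% ± 0.599 (6 dpa), 98.2% ± 0.683 (8 dpa) and 95.6% ± 1.03 (10 dpa) of the summed TPM of all 19 alpha-amylase genes. It held 31.6% ± 36.4 at 13 dpa, with 71.5% in the highest and 0.272% in the lowest library, and averaged 11.6% if replicate 1 is left out and 47.2% if replicate 3 is. The AMY2 pair held 3.52% ± 0.545 (10 dpa), 79.2% ± 5.25 (15 dpa) and 66.6% ± 10.2 (30 dpa). The AMY3 pair held 0.419% ± 0.146 (10 dpa), 13.3% ± 2.24 (15 dpa) and 16.9% ± 1.71 (30 dpa), each the mean ± SD of 3 libraries. The summed level of the 19 genes was 2.99 ± 0.868 TPM at 30 dpa, against 297 ± 140 TPM at 8 dpa. From 13 dpa on, the AMY2 pair held the largest mean share. At 13 dpa that share was 58.6% ± 33.9, with 22.6% in the lowest and 89.8% in the highest library. From 15 dpa it was the largest share in every library. The summed TPM of the AMY2 pair was 3.33 ± 0.586 (6 dpa), 3.69 ± 0.255 (8 dpa), 3.50 ± 0.130 (10 dpa) and 5.17 ± 1.74 (13 dpa). At 13 dpa it was 7.18 TPM in replicate 3, against 4.08 and 4.26 TPM in the others. Later it was 3.31 ± 0.323 (15 dpa), 3.05 ± 0.727 (18 dpa), 2.79 ± 0.518 (20 dpa) and 1.93 ± 0.294 (30 dpa), each the mean ± SD of 3 libraries. The 30 dpa libraries of the pair, at 1.65 to 2.24 TPM, all lay below those of 6 dpa, at 2.70 to 3.86 TPM. On the TMM scale the direction was the opposite, with means of 7.29 CPM at 30 dpa and 4.94 CPM at 6 dpa.

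**Figure D5:**
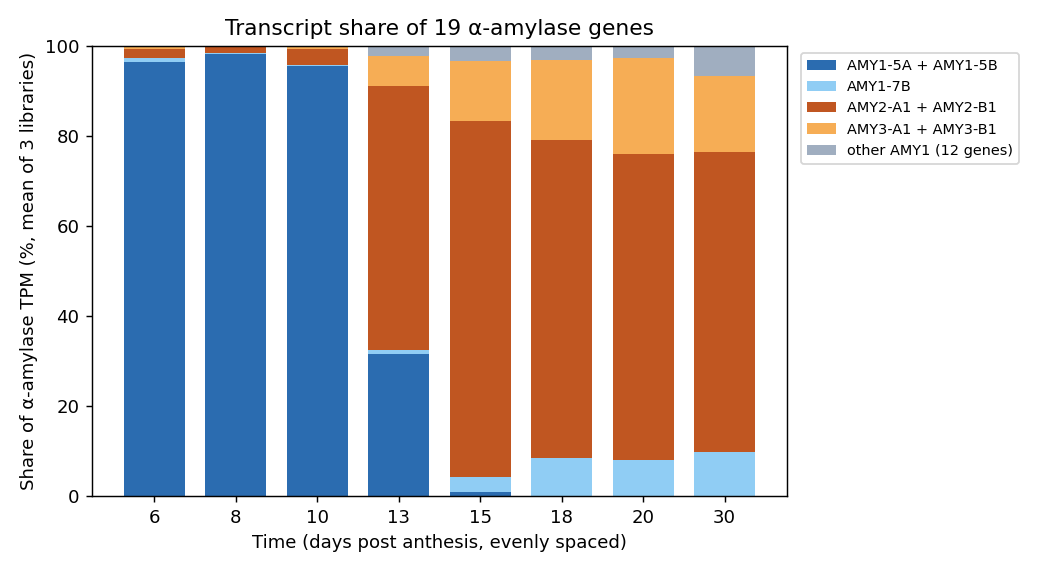
Share of each alpha-amylase group in the summed TPM of 19 genes. Stacked bars are means of 3 libraries per timepoint in percent. The AMY1-5A and AMY1-5B pair fills over 95% of the bar until 10 dpa and 0% from 18 dpa, when the AMY2 pair is the largest part (70.6% at 18 dpa).

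The other starch degradation genes were counted beside them: beta-amylases (BAM), which release maltose from chain ends, isoamylase 3 (ISA3), a debranching enzyme of starch breakdown, and limit dextrinase (LDA), which cuts α-1,6 branches. Of 20 such genes 19 were tested, and 12 were higher and 3 lower at 30 than at 6 dpa, with a median log2 fold change of 2.35, against -0.01 over all genes tested, of which 28.7% were higher and 29.1% lower. At 13 dpa, against 6 dpa, 9 were higher and 3 lower (8 and 3 without 13 dpa replicate 3), beside 26% and 23.8% of all genes. With library totals as the scale, 5 of the 19 were lower at 30 than at 6 dpa. On that scale 29665 of all 44240 genes tested were lower and 3643 higher.

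Of the 4 genes of this list with the largest fitted changes, 3 ran opposite to the AMY1 pair. BAM5.3-B1 rose by a log2 fold change of 15.84 at 30 dpa, against 6 dpa (adjusted p = 3.3e-09, edgeR), BAM5.3-A1 by 15.27 (adjusted p = 6.8e-09) and LDA-A1 by 8.01 (adjusted p = 7.4e-08). BAM5.3-A1 averaged 4540 TPM at 30 dpa and 0.243 TPM at 6 dpa. The 3 lower genes of the list were BAM5.2-A1, BAM5.1-A1 and BAM5.1-B1. BAM5.2-A1 was low and, as the AMY1 pair was, highest at 8 dpa. Its means were 0.109 TPM at 6 dpa, 0.305 TPM at 8 dpa and 0.149 TPM at 10 dpa. It had 0 counts in each library of 30 dpa, against 33, 20 and 30 counts at 6 dpa (adjusted p = 0.0021, edgeR). BAM5.1-A1 and BAM5.1-B1, named after their values were seen, were also early and fell later, but were highest at 6 dpa. At 8 dpa, where the AMY1 pair was highest, they had already fallen, to means of 15.1 and 9.32 TPM. BAM5.1-A1 averaged 0.225 TPM at 30 dpa and 36.0 TPM at 6 dpa. Its r with the AMY1 pair over the 24 libraries was 0.88, rank 1710 of the 12150 genes ranked. BAM5.1-B1 averaged 0.237 TPM at 30 dpa and 25.5 TPM at 6 dpa, with an r of 0.85 and rank 2350.

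The libraries of 8 and 10 dpa, where the AMY1 pair and these genes were both detected, showed them side by side. At 8 dpa AMY1-5A had 312, 150 and 135 TPM in replicates 1, 2 and 3, while BAM5.3-A1 had 20.2, 117 and 42.4 TPM and LDA-A1 0.421, 3.32 and 0.745 TPM. The library highest in AMY1-5A was the lowest in both. At 10 dpa AMY1-5A had 70.4, 65.5 and 74.4 TPM, while BAM5.3-A1 had 284, 1938 and 1042 TPM. BAM5.3-A1 spread 6.82-fold and AMY1-5A 1.13-fold. AMY1-5B spread 2.34-fold, and replicate 2, the highest in BAM5.3-A1, was the lowest in both AMY1 copies. At 13 dpa the sizes of the spreads were turned round, with AMY1-5A differing 531-fold between libraries and BAM5.3-A1 1.29-fold. LDA-A1 was at 44.9, 36.8 and 42.3 TPM, so that replicate 1, the highest in AMY1-5A, was here also the highest in LDA-A1.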

How the data were processed

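Endosperm RNA (poly-A selected, paired reads) of 24 libraries was quantified by the authors with kallisto 0.46.1 against 1 canonical transcript per gene of the Svevo v1 annotation. They deposited estimated counts, which need not be whole, and TPM for 66559 transcripts. No strand setting is given in the sources used here. Lengths are coding lengths, since 99.9% were multiples of 3, and positions come from the GenBank Svevo v1 gene table, which matched 63993 IDs. No genome or promoter sequence was used.

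Counts were rounded and fitted in R 4.3.3 with edgeR 4.0.16 (TMM, quasi-likelihood test, timepoint as factor, a filter of 10 counts in 3 or more libraries, Benjamini-Hochberg adjustment over all 44240 genes tested), in 1 test over the 8 timepoints and 11 pairs of timepoints. A gene was called at an adjusted p of at most 0.05 and over 1.5-fold. Standard errors of edgeR fold changes were derived from the test, as the absolute log2 fold change over the square root of its F. Alternatives were DESeq2 1.42.0, limma 3.58.1 on log2(TPM + 0.1) of the deposited TPM, other scalings, no filter, only the libraries compared, summed homeologs (also without 13 dpa replicate 3), a replicate block and leaving out each library. Homeolog ratios were tested on log2((A + 0.5)/(B + 0.5)) of counts with 100000 permutations of the libraries over timepoints, and on timepoint means of log2((A + 0.1)/(B + 0.1)) of TPM with two-sided sign flips. The fits of counts and the permutation test of F were tried on simulated data. Values were summarised with Python 3.11.15.

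Members, gene lists and comparisons were chosen with earlier results of these data known. The genes named were the 7 members, AMY1 genes over 0.5 TPM in a timepoint mean (none outside the members), the 4 starch degradation genes with the largest fold changes among those called at 30 against 6 dpa, and the genes most like the AMY1 and AMY2 pairs in TMM-scaled CPM. Of the 5 and 3 genes that this rule named for likeness, the first 1 or 2 are given by ID. Genes named to show a neighbour, a marker or a dip at 13 dpa were chosen after their values were seen. Replicates came from separate spikes, some of 1 plant across timepoints, and p-values measure the spread between these libraries.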

Additional observations from a re-analysis of the deposited data

How the results depend on the processing

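The test over the 8 timepoints called all 4 AMY2 and AMY3 genes under every alternative run except library totals, which called 2. Library totals called 37365 of all 44240 genes tested. In the fits that left out 1 library, the number of these genes called higher was 0 to 3 at 13 against 10 dpa, 1 to 2 at 13 against 6 dpa, 0 to 2 at 15 against 8 dpa, 1 to 3 at 30 against 6 dpa and 0 to 1 at 30 against 13 dpa, and 0 to 1 were lower at 30 against 13 dpa. With library totals as the scale, 0 were higher at 13 against 10, 13 against 6, 15 against 8 and 30 against 6 dpa, and 3 were lower at 30 against 6 dpa and 2 at 30 against 13 dpa. Most genes were lower on that scale. Of all 44240 tested, 29665 were lower and 3643 higher at 30 against 6 dpa. At 30 against 13 dpa 27736 were lower and 1478 higher. With limma on log2(TPM + 0.1), 0 were higher at 13 against 10, 15 against 8 and 30 against 6 dpa, 1 was higher at 13 against 6 dpa, 1 was lower at 30 against 6 dpa and 2 at 30 against 13 dpa. Of all 44240 genes, limma called 26660 lower and 4298 higher at 30 against 6 dpa. At 30 against 13 dpa it called 25565 lower and 1669 higher, and at 13 against 6 dpa 14276 lower and 8384 higher. With only the libraries compared, 0 were higher at 13 against 10 dpa and 1 at 13 against 6 and at 30 against 6 dpa, and 0 were lower at 30 against 13 dpa. Without the count filter 1 was higher at 13 against 10 and at 15 against 8 dpa. DESeq2 size factors in edgeR gave 1 at 15 against 8 dpa. DESeq2 left these counts unchanged.

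With summed A and B counts and without 13 dpa replicate 3, chosen after seeing the data, AMY2 had 0.46 at 13 against 10 dpa (adjusted p = 0.13, edgeR), against 0.64 (adjusted p = 0.020) with that library. With library totals the log2 fold change at 30 against 6 dpa was -1.37 for AMY2-A1, -1.01 for AMY2-B1, -0.76 for AMY3-A1 and -1.16 for AMY3-B1, and AMY2-B1 had -0.035 at 15 against 8 dpa and -1.22 at 30 against 13 dpa. With log2(TPM + 0.1) the values at 30 against 6 dpa were -0.88 for AMY2-A1, -0.56 for AMY2-B1 and -0.28 for AMY3-A1, and AMY2-B1 had -0.94 at 30 against 13 dpa.

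Same-numbered replicates did not pair across timepoints (correlations of deviations -0.06 to 0.18 over 4 comparisons), and with the replicate number as a block 1 gene in place of 2 was higher at 13 against 10 dpa (AMY2-B1 had an adjusted p of 0.054, edgeR), with no other such count changed by over 1.5 times. Of the tested AMY1 genes outside the members, 2 were higher at 13 against 6 dpa without the filter, and leaving out 1 library gave 0 to 1 higher and 1 to 2 lower. With library totals 5 starch degradation genes were lower at 30 against 6 dpa, beside 29665 of all 44240 genes tested. The F of the AMY1 ratio, from which no call is read, ranged from 0.478 to 2.81 in the fits that left out 1 library, and the other ratio tests kept their calls under each alternative run. At the levels of AMY3, 29 to 322 counts per gene and library, fold changes carried standard errors of 0.33 to 0.37 on the log2 scale.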
